A study of Mus musculus with 6 samples.

Results

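The genes that write and erase methylation on histone lysines were followed in cultured mouse cerebellar granule neurons (CGNs) after inhibition of 1 such writer, EZH2. Members were chosen by name alone: all Kdm, Kmt, Setd, Setdb, Prdm and numbered Smyd genes, with Setmar, Suv39h1, Suv39h2, Ehmt1, Ehmt2, Nsd1, Nsd2, Nsd3, Ash1l and Dot1l, and without the Y-linked Kdm5d. The rule took 64 of the 55341 gene symbols in the count files. Of these, 60 had at least 1 CPM (the read count scaled to the size of its library) in at least 3 of the 6 libraries and were tested among 16685 genes. Ezh1 and Ezh2 do not match the name pattern and are given with their partners further on.

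The 6 poly(A) RNA-seq libraries fell into 2 groups, CGNs with the vehicle DMSO (n = 3) and CGNs with GSK-126 (n = 3), a small molecule that inhibits EZH2. According to the study's methods, the mice were of the CD1-IGS stock, with no transgene or deletion named for either group. Neurons were isolated from early postnatal pups, cytosine arabinoside was given on the second day to block dividing cells, and a culture replicate is the neurons of pooled cerebella, so that a replicate is a pool of animals. The inhibitor was taken as added on the first day in culture, which is read from the names of the deposited tables and stated by no label. The labels name the source as cerebellum and give neither dose nor sex.

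Lysine methyltransferases move methyl groups from S-adenosylmethionine onto lysines of histones, in most cases through a SET domain, and demethylases remove them by oxidation. Which lysine is methylated matters: H3K4 and H3K36 methylation mark active promoters and transcribed gene bodies, H3K79 methylation accompanies transcription, and H3K9 and H3K27 methylation mark silenced chromatin. PRC2, with EZH2 or EZH1 as its catalytic subunit, writes H3K27 methylation, and KDM6A and KDM6B remove it. Several of these enzymes are known from human neurodevelopmental syndromes, among them KMT2D and KDM6A in Kabuki syndrome, EHMT1 in Kleefstra syndrome and NSD1 in Sotos syndrome. The comparison asks whether blocking 1 writer is followed by altered transcript levels of the others.

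None of the 60 members passed the test in either direction. With the replicate number as a block, 0 were called higher and 0 lower at an adjusted p under 0.05 (edgeR quasi-likelihood test, Benjamini-Hochberg adjustment over all genes tested), against 2.23% called higher and 1.38% called lower among all genes tested. Without the block, 0 members were called, and 0% of all genes were called higher and 0% lower. At an unadjusted p under 0.05 in the blocked edgeR fit, 2 members were higher and 4 were lower, against 9.15% higher and 7.31% lower of all genes tested. The members nearest to the threshold were Dot1l (adjusted p 0.0577), Prdm8 (0.0694) and Suv39h1 (0.0981).

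The sequences before the starts of these 3 genes are shown because other tests called Dot1l and Prdm8, as given below, and because the groups of Suv39h1 did not overlap. Prdm13 is added as a hindbrain gene below the filter that had more counts with GSK-126 in each pair. CG dinucleotides are in capitals, since CG-dense promoters are the ones at which H3K4 and H3K27 methylation are best known. Each line holds the 250 bases before the start in the RefSeq table (GRCm38.p6), 5′ to 3′ on the gene's strand.
Dot1l, chr10:80754953-80755202, plus strand: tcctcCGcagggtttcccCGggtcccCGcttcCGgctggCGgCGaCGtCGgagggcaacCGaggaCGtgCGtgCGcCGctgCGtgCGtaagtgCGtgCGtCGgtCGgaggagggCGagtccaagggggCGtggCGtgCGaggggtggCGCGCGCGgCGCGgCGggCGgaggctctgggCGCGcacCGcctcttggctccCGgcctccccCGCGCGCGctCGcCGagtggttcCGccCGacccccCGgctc
Prdm8, chr5:98180619-98180868, plus strand: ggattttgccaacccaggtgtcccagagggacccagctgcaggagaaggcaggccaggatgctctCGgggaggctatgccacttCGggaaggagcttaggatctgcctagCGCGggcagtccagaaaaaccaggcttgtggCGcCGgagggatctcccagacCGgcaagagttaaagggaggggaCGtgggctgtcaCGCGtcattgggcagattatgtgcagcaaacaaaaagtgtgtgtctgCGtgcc
Suv39h1, chrX:8074761-8075010, minus strand: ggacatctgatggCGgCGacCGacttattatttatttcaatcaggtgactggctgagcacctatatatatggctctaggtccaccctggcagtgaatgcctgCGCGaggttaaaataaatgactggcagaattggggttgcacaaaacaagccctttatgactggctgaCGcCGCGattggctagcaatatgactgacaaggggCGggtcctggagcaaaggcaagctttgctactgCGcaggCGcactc
Prdm13, chr4:21685964-21686213, minus strand: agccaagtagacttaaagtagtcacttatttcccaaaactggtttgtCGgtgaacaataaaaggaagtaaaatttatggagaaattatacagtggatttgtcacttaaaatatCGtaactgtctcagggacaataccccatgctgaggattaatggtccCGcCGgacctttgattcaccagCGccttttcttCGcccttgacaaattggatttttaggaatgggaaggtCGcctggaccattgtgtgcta

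The Dot1l window held 44 CG, the Prdm8 and Suv39h1 windows 11 each and the Prdm13 window 7. As many CG or more were held by 0.539%, 35.5% and 46.3% of the 32817 windows of all genes, in that order, so that only the Dot1l window was unusual in this count. The Prdm8 start in the table lies inside the span of the gene in GENCODE M21, within an intron of its longer transcript and shortly before its shorter one, and 0 GENCODE transcripts held the bases after it, so that its count may not describe the start in use. Suv39h1 has a further start in the table, whose window held 25 CG. The table matched 46 of the 64 members, whose 62 windows had a median of 19.5 CG (0 to 56), against 6 over all windows, and 92.1% of all windows held at least 1. H3K27 methylation was not measured in these libraries, and the counts describe the windows only.

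The libraries held 8058760 to 12047837 counts over genes, GSK-126 replicate 1 being the deepest, so that 3 counts corresponded to 0.249 to 0.372 CPM. The cell type was checked on its markers. Granule neuron markers were present in all libraries, but their summed level was lower with GSK-126 in each pair (3383, 4953 and 3711 CPM with DMSO in replicates 1 to 3, and 2405, 3571 and 2709 with GSK-126), and 6 of the 10 were called lower. Among the log2 fold changes of these 10, 8 were negative, down to -2.16 for Slc17a7, and 2 positive, Pax6 (0.04) and Tubb3 (0.36). Markers of other cells were present too. The 6 fibroblast markers summed to 6721 to 8791 CPM with DMSO and 8811 to 9782 with GSK-126 (1 called higher), and the endothelial and mural markers to 652 to 1102 and 1224 to 1531 (4 of 9 tested called higher), although the defining endothelial marker Cldn5 stayed under the filter. Called higher were Flt1, Pdgfrb, Acta2 and Tagln, and the mural Acta2 and Tagln made up most of the sum. The endothelial Cdh5 and Kdr had log2 fold changes of -0.30 and -0.01. Astrocyte and Bergmann glia markers summed to 2495 to 7546 and 2427 to 7912 CPM, lowest in replicate 2 of both groups (1 of 10 higher), and microglial markers to 251 to 455 and 295 to 635 (1 of 9 higher). Oligodendrocyte lineage markers had 1 of 10 higher, GABAergic neuron markers 1 of 8 lower and proliferation markers 0 of 10 in either direction. Their part in the values below was not tested, and fewer cells of a type cannot be told apart from lower expression of the markers in each cell.

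In the DMSO libraries most members were present at a moderate level. Per kilobase of exon (kb), the median over the 60 members was 9.01 CPM per kb, 26 had 10 or more, and 4 had less than 1. The highest DMSO levels were those of Prdm8 (27.9 ± 4.83 CPM per kb, SD, n = 3), a transcriptional repressor of neurons, Kdm4a (26.1 ± 0.321), an H3K9 and H3K36 demethylase, Kdm1a (24 ± 1.58), the H3K4 demethylase LSD1, Ehmt2 (23.3 ± 1.42), the H3K9 methyltransferase G9a, Setd7 (22.2 ± 1.65), an H3K4 methyltransferase with many non-histone targets, and Dot1l (20.1 ± 5.7), the H3K79 methyltransferase. The ranges of mean and SD of neighbours in this order overlapped, except those of Kdm4a and Kdm1a. The lowest were Smyd1 (0.221 CPM per kb), known from muscle, Prdm16 (0.261) and Kdm4d (0.361), known from testis.

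**Figure D1:**
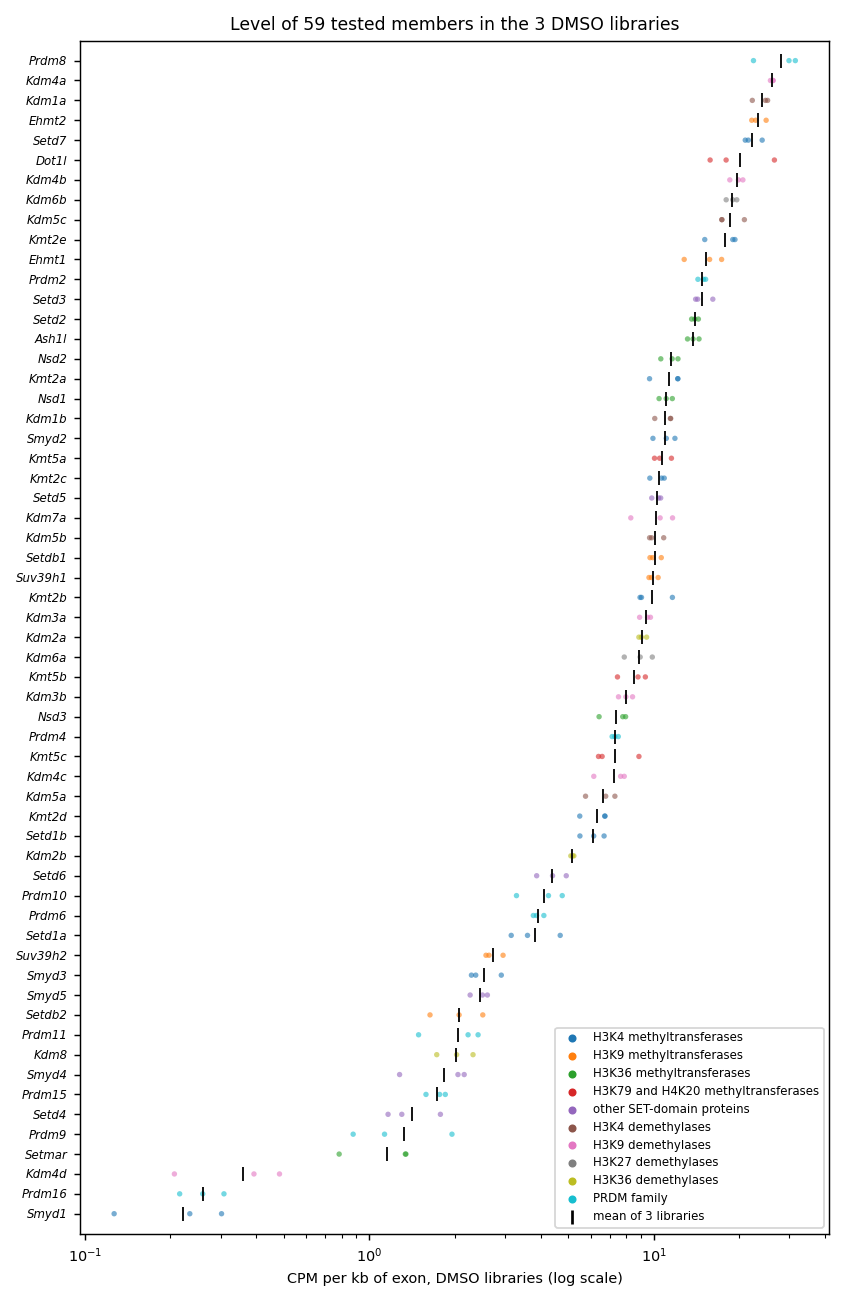
Level of 59 of the 60 tested members in the 3 DMSO libraries, in CPM per kb of exon on a log axis. Each point is 1 library, coloured by the member's role, and the black tick is the mean of 3. Prdm8 stands highest at 27.9 and Smyd1 lowest at 0.221 CPM per kb.

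The plot of DMSO levels shows several PRDM and SMYD genes at the low end and members of most roles at the high end. It also shows how closely the DMSO libraries agreed. For the 36 members with a mean of 50 CPM or more, the coefficient of variation over the DMSO libraries had a median of 7.05%, from 1.23% for Kdm4a to 28.3% for Dot1l. Dot1l was thus the least even of the abundant members before any comparison between groups, with its highest DMSO value in replicate 2.

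The 4 members below the filter all belong to the PRDM family, of which many members act as tissue-specific transcription factors. Prdm13, which directs GABAergic fates in the hindbrain and spinal cord, had 16, 3 and 11 counts in GSK-126 replicates 1 to 3 and 5, 0 and 3 in the DMSO libraries. The GSK-126 library held more than its DMSO partner in each pair, but counts of this size, including 1 DMSO library at 0, give no usable fold. The study reports no effect of EZH2 inhibition on Prdm13 expression, or on H3K27 trimethylation at its promoter, in its cultures. Prdm1, a factor of plasma cells and germ cells, had 9, 5 and 17 counts in the GSK-126 libraries and 5, 7 and 12 in their DMSO partners. Prdm12, known from pain-sensing neurons, had a single count in DMSO replicate 2 and in GSK-126 replicate 3 and 0 in the others. Prdm14, known from germ cells, had 0 counts in all DMSO libraries and 0, 2 and 0 with GSK-126. Prdm12 and Prdm14 were therefore at or below the floor of 3 counts in every library.

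**Figure D2:**
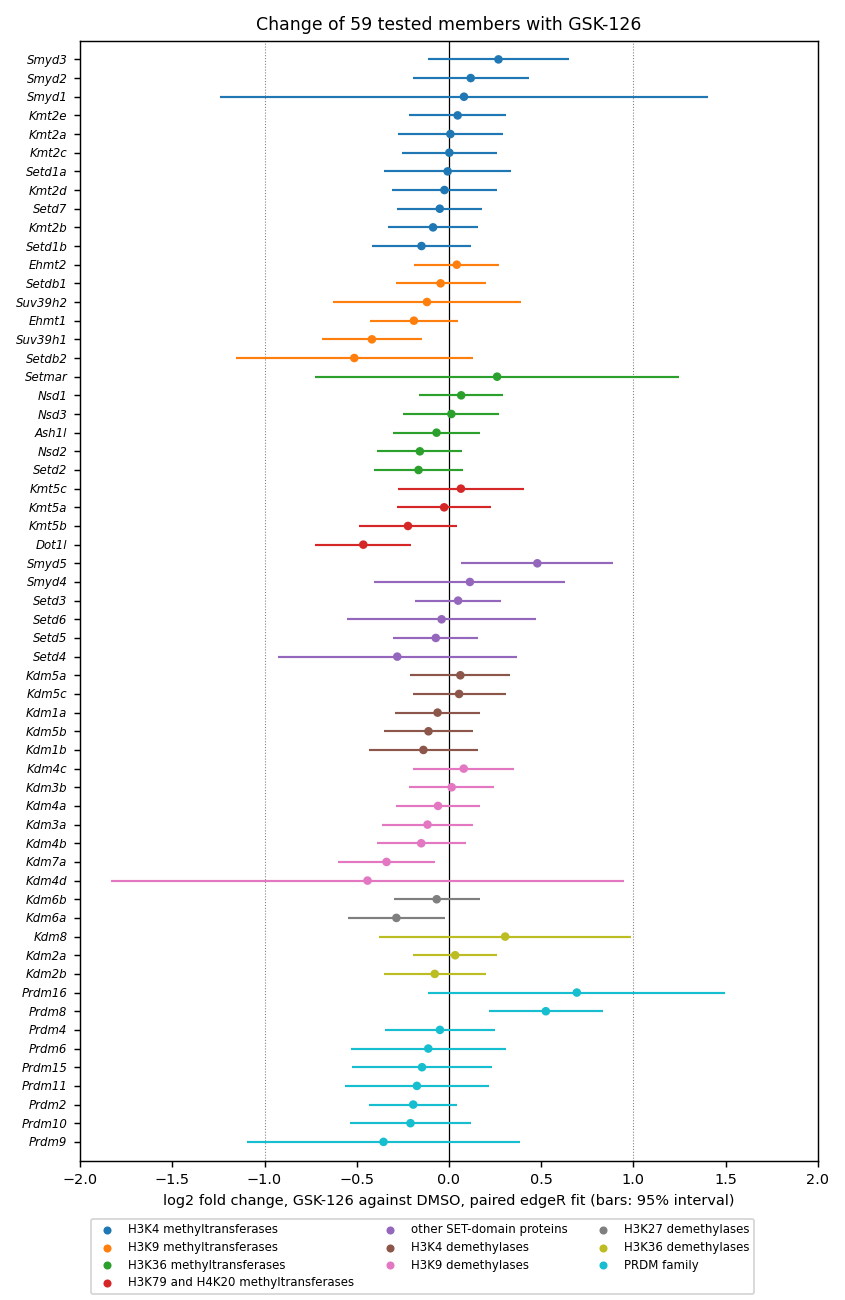
Log2 fold change of 59 of the 60 tested members with GSK-126 against DMSO in the edgeR fit with the replicate block, with its 95% interval (n = 3 pairs), grouped and coloured by role. No member passed the test, and the intervals of Dot1l, Suv39h1, Kdm7a, Kdm6a, Prdm8 and Smyd5 leave out 0 before adjustment.

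The plot of fold changes shows most members close to 0. Log2 fold changes ran from -0.51 for Setdb2 to 0.69 for Prdm16, with SEs from 0.103 to 0.635 (median 0.123). Positive values were found in 23 members and negative values in 37, with a median of -0.05, against -0.00 over all genes tested. The 95% interval lay within 1 log2 unit on either side of 0 for 54 of the 60 members and within 0.5 for 37, so that for most members a change past 2-fold lay outside the interval. The 27 methyltransferases assigned to a lysine had 11 positive and 16 negative values (median -0.03), and the 17 demethylases had 6 and 11 (median -0.07).

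The H3K27 demethylases act on the mark that EZH2 writes. Kdm6a (chromosome X, 18162575 to 18279936) encodes UTX, which is also a subunit of the KMT2C and KMT2D complexes. It had 82.9, 75.1 and 66.0 CPM in DMSO replicates 1 to 3 and 58.6, 65.5 and 59.4 CPM with GSK-126. All 3 GSK-126 libraries lay below the lowest DMSO library, though by less than 1 CPM at the nearest, and the log2 fold change was -0.29 (edgeR adjusted p 0.259, SE 0.120), or -0.17 without replicate 1. Kdm6b (chromosome 11, 69398508 to 69413675), which encodes JMJD3 and is induced by many signals, had 136, 132 and 125 CPM with DMSO and 121, 125 and 129 with GSK-126. The groups overlapped, and its log2 fold change was -0.07 with a 95% interval from -0.30 to 0.17 (edgeR adjusted p 0.821, SE 0.106). Of its exons 4.11% overlap the antisense gene Kdm6bos.

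Among the H3K79 and H4K20 methyltransferases, Dot1l (chromosome 10, 80755206 to 80795461) is the sole H3K79 methyltransferase and has no SET domain. It had 156, 231 and 137 CPM in DMSO replicates 1 to 3 and 102, 153 and 122 CPM with GSK-126. Each GSK-126 library was below its partner, but the groups overlapped because replicate 2 was the highest of both. The log2 fold change was -0.46 (95% interval -0.73 to -0.20, SE 0.119, edgeR adjusted p 0.0577), a fold of 0.725, and without the block the adjusted p was 0.830. The ratio was unequal over the pairs, at -0.62, -0.59 and -0.17 on the log2 scale. Dot1l was called lower by DESeq2 with the block (adjusted p 0.0307), as were 1.62% of all genes tested. The limma-voom fit with the block also called it lower (adjusted p 0.0483), with 1.55% of all genes tested. With edgeR and no filter on low counts it was called lower too (adjusted p 0.00493), as were 1.48% of the 28842 genes in that fit. The summed granule neuron markers were likewise highest in replicate 2 of each group and lower with GSK-126 in each pair, and their part in the Dot1l values was not tested. The H4K20 enzymes of the group lay nearer to 0. Kmt5a, which places the first methyl group, had a log2 fold change of -0.03, Kmt5b -0.22 and Kmt5c 0.06.

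The H3K9 methyltransferases build silent chromatin apart from PRC2. Suv39h1 (chromosome X, 8061171 to 8074760), which trimethylates H3K9 around centromeres, had 50.7, 54.6 and 51.7 CPM with DMSO and 36.3, 41.1 and 40.3 CPM with GSK-126. The groups did not overlap and each was tight, at 52.4 ± 2.02 against 39.2 ± 2.55 CPM (SD, n = 3). Its log2 ratio within the pairs was -0.48, -0.41 and -0.36, and the fit gave -0.42 (95% interval -0.69 to -0.15, SE 0.123, edgeR adjusted p 0.0981). This did not pass the test under any of the alternatives. The antisense gene Gm14820, which overlaps 14.55% of the Suv39h1 exons, had a log2 fold change of -0.29 (edgeR adjusted p 0.451), so that reads of the pair may be mixed. Suv39h1 and Kdm7a, below, were chosen after their values were seen.

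The related Suv39h2 was scarcer, at 11.3 to 13 CPM with DMSO, and had a log2 fold change of -0.12. Setdb2, another H3K9 methyltransferase, had the most negative value of all members at -0.51, but with 10.1, 8.37 and 6.62 CPM with DMSO and 4.41, 6.38 and 6.95 with GSK-126 its groups overlapped and pair 3 went the other way (edgeR adjusted p 0.429, SE 0.294). Without replicate 1 its log2 fold change was -0.16. Ehmt2 had overlapping groups, at 125, 121 and 136 CPM with DMSO and 137, 118 and 140 with GSK-126 (log2 fold change 0.04, 95% interval -0.19 to 0.27). Its partner Ehmt1 had -0.19, and Setdb1, which silences endogenous retroviruses, had -0.05.

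Of the 7 H3K9 demethylases, 5 had negative values (median -0.12). Kdm7a, which removes lower methylation states from H3K9 and H3K27, had 106, 117 and 83.5 CPM with DMSO and 69.7, 101 and 73.2 with GSK-126. It was lower in each pair although the groups overlapped, with a log2 fold change of -0.34 (edgeR adjusted p 0.175, SE 0.120). Kdm4a had 149, 152 and 152 CPM with DMSO and 136, 154 and 145 with GSK-126 (-0.06, 95% interval -0.29 to 0.17). Kdm4d had the widest interval of all members, -1.83 to 0.95, at 0.482 to 1.38 CPM in any library.

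The members classed as H3K4 methyltransferases were the KMT2 and SETD1 genes with Setd7 and part of the SMYD family. Their median was 0.00 over 11 members, with 6 positive and 5 negative. Kmt2a, Kmt2c and Kmt2d, the large catalytic subunits of complexes at promoters and enhancers, had log2 fold changes of 0.01, 0.00 and -0.02. Their pairs were opposed, with log2 ratios of -0.36, 0.10 and 0.29 for Kmt2a, -0.29, 0.18 and 0.12 for Kmt2c, and -0.32, -0.08 and 0.32 for Kmt2d. Setd7 had 260, 232 and 227 CPM with DMSO and 223, 234 and 237 with GSK-126 (-0.05, 95% interval -0.28 to 0.18). Smyd3 departed furthest from 0 at 0.27 (edgeR adjusted p 0.495, SE 0.175), with 26.7, 21 and 21.7 CPM with DMSO and 26.9, 34.3 and 23.2 with GSK-126. Without replicate 2 its log2 fold change was 0.068. The exons of Setd1a are overlapped for 51.9% on the same strand by Gm49388, which had a count of 0, so that its level of 21.4 to 31.9 CPM may miss ambiguous reads.

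The opposing H3K4 demethylases also lay near 0 in the fit. Kdm1a had 115, 128 and 130 CPM with DMSO and 118, 122 and 117 with GSK-126 (-0.06, 95% interval -0.29 to 0.17). Kdm1b, its paralog, had 63, 62.9 and 55.4 CPM and 46.1, 67.6 and 53, with a log2 fold change of -0.14 (edgeR adjusted p 0.679, SE 0.134). Kdm5a, Kdm5b and Kdm5c, which remove higher H3K4 methylation, had 0.06, -0.11 and 0.05.

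For H3K36, Ash1l and the NSD enzymes place lower methylation and Setd2 completes it in transcribed gene bodies. Ash1l had 204, 214 and 195 CPM with DMSO and 169, 220 and 199 with GSK-126 (-0.07, 95% interval -0.31 to 0.17). Nsd1, Nsd2 and Nsd3 had log2 fold changes of 0.07, -0.16 and 0.01 and Setd2 -0.16. Setmar, a SET domain joined to a transposase, was low at 1.38 to 2.51 CPM and had 0.26 (SE 0.450). Of the H3K36 demethylases, Kdm2a was even at 136, 128 and 131 CPM against 132, 138 and 134 (0.03), Kdm2b had -0.08, and Kdm8, at 3.76 to 7.66 CPM, had 0.30 (edgeR adjusted p 0.700, SE 0.312).

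The PRDM family held both the highest positive value and the widest spread. Prdm8 (chromosome 5, 98167198 to 98188991) had 145, 109 and 153 CPM in DMSO replicates 1 to 3 and 164, 213 and 206 CPM with GSK-126. The groups did not overlap, and replicate 2 moved from the lowest DMSO value to the highest GSK-126 value. The log2 fold change was 0.53 (95% interval 0.22 to 0.83, SE 0.141, edgeR adjusted p 0.0694), a fold of 1.44, and without the block the adjusted p was 0.824. Prdm8 was called higher by DESeq2 with the block (adjusted p 0.0234), as were 2.48% of all genes tested. With edgeR and no filter it was called higher too (adjusted p 0.000434), as were 2.45% of the 28842 genes in that fit. It was also called higher by edgeR without replicate 1 (log2 fold change 0.70, adjusted p 0.0105), as were 2.23% of all genes tested. The limma-voom fit with the block, which called 2.3% of genes higher, gave Prdm8 an adjusted p of 0.0626. Without replicate 2 its log2 fold change was 0.32 (edgeR adjusted p 0.332). A730035I17Rik, an antisense gene, overlaps 29.06% of the Prdm8 exons and had 79.5, 64.1 and 89.4 CPM with DMSO and 85.3, 125 and 119 with GSK-126, so that both genes were lowest in DMSO replicate 2 and highest in GSK-126 replicate 2. With the strand setting of the counts not stated, reads of Prdm8 and this gene cannot be told apart.

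Prdm16, known from brown fat, neural stem cells and blood vessels, had 2.42, 2.87 and 2.01 CPM with DMSO and 3.58, 4.34 and 3.87 with GSK-126. The groups did not overlap, but at this level its fold of 1.62 had a 95% interval from 0.925 to 2.83 (log2 fold change 0.69, edgeR adjusted p 0.388). Smyd5, a SET and MYND domain protein outside the PRDM family, did the same at 15.2, 14.6 and 13.2 CPM against 18.7, 17.7 and 24.0 (log2 fold change 0.48, SE 0.188, edgeR adjusted p 0.223, and 0.29 with an adjusted p of 0.827 without replicate 3). The summed endothelial and mural markers, mostly the mural Acta2 and Tagln, were also higher in all GSK-126 libraries than in any DMSO library. So were the summed fibroblast markers, narrowly at the nearest (8791 CPM in DMSO replicate 3, 8811 in GSK-126 replicate 2). The part of these markers in the Prdm16 and Smyd5 values was not tested. Setd3, which methylates actin, had 84.7, 97.3 and 86.1 CPM with DMSO and 88.4, 95.6 and 93.2 with GSK-126 (0.05, 95% interval -0.19 to 0.28).

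**Figure D3:**
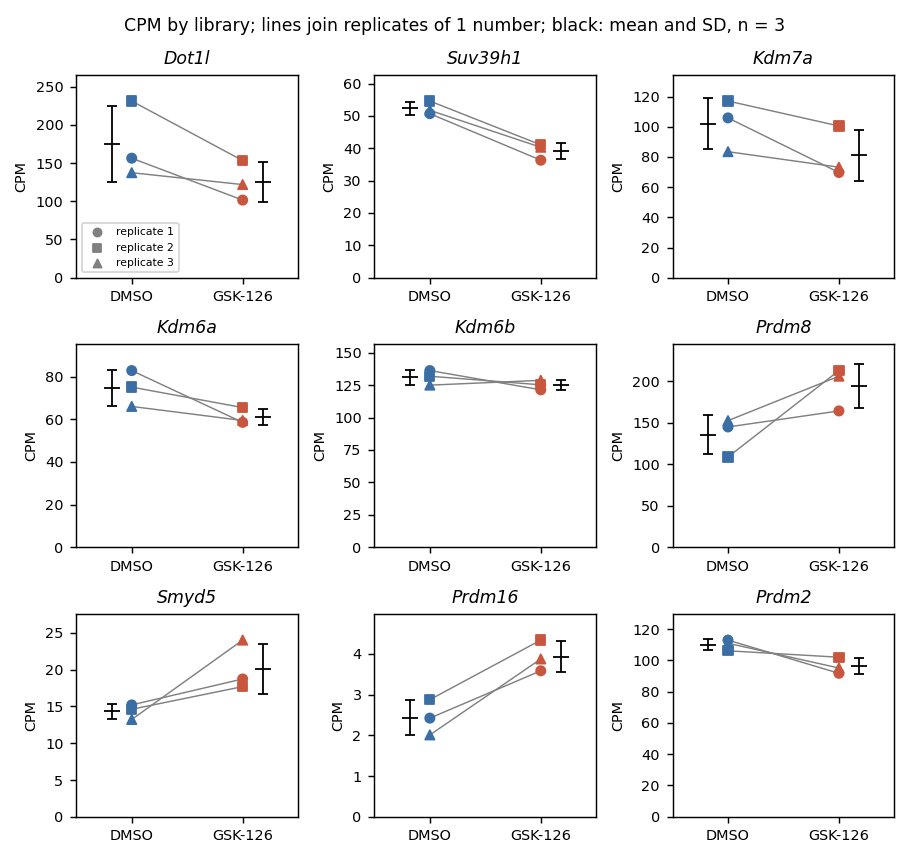
CPM of 9 members in each library, with each axis starting at 0. Symbols give the replicate number, grey lines join the DMSO and GSK-126 libraries of 1 number, and black marks give the mean and SD of 3. Dot1l is lower in each pair while its groups overlap, Suv39h1, Kdm6a, Prdm2, Prdm8, Smyd5 and Prdm16 do not overlap between groups, and Kdm6b is level.

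Counted over the family, the separation of groups seen in the plot by library was near that of all genes. All GSK-126 libraries lay above all DMSO libraries for 4 members, Prdm16, Prdm8 and Smyd5 among them, against 5.41% of all genes tested, and below them for 3 members, Kdm6a, Prdm2 and Suv39h1, against 5.43%. Prdm2, a PRDM protein with H3K9 methyltransferase activity, was named by this count, after its values were seen, with 113, 106 and 111 CPM with DMSO and 91.7, 102 and 95.1 with GSK-126 (log2 fold change -0.19, edgeR adjusted p 0.418). Higher in 3 of 3 pairs were 6 members, against 19.6% of all genes, and lower in 3 of 3 pairs were 11, against 19.2%. Kdm6a and Suv39h1 lie on the X chromosome, as does Kdm5c, whose DMSO mean of 132 CPM and GSK-126 mean of 137 CPM differed by 0.05 on the log2 scale. Xist ran from 615 to 1391 CPM with DMSO and from 715 to 1189 with GSK-126 (edgeR adjusted p 0.999).

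The replicate pairs did not place the family alike. In pair 1 the members' median log2 ratio was -0.21 and 16 of 60 were positive, in pair 2 it was -0.01 with 30 positive, and in pair 3 it was 0.04 with 34 positive, whereas the median of all genes was 0.00 in each. Members have long transcripts, with a median of 7768 exon bases against 4033 over all genes tested. In pair 1 the median ratio of all genes was 0.053 for those under 1000 exon bases, 0.17 for those of 1000 to 2000 bases, and from there lower with length, down to -0.14 for those of 8000 to 16000 and -0.28 above, and the members of the latter length groups had -0.27 (21 members) and -0.30 (9 members). In pairs 2 and 3 the longest genes had medians of 0.08 and 0.07 instead. After each ratio was centred on the median of all genes of its length group, an alternative added after the data had been seen, the members' medians were -0.07, -0.03 and 0.02, and the median log2 fold change moved from -0.05 to -0.04. Centred values were positive for 25 members and negative for 35, against 23 and 37 before.

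**Figure D4:**
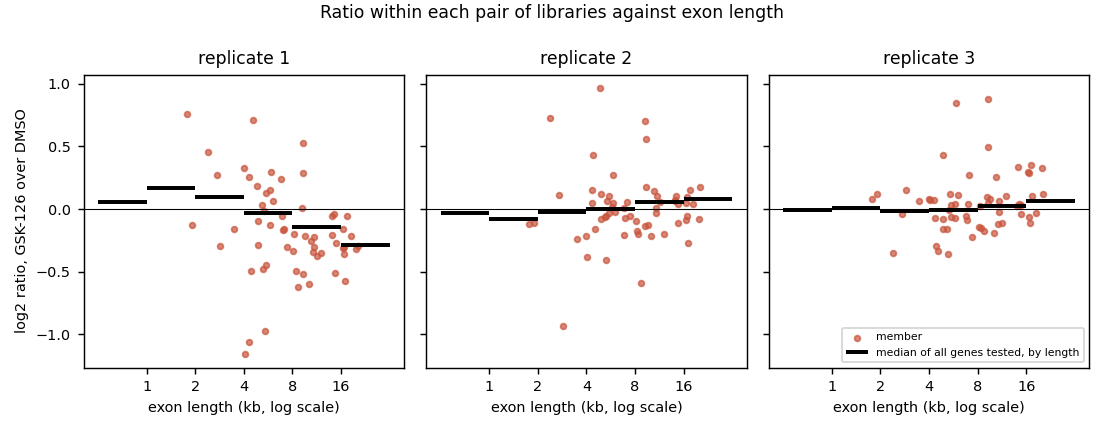
Log2 ratio of GSK-126 over DMSO within each replicate pair against exon length in kb on a log axis. Red points are the 60 tested members and black bars the medians of all genes tested in each length group. In replicate 1 the bars go from 0.053 below 1 kb and 0.17 at 1 to 2 kb to -0.28 above 16 kb, and the members of 8 to 16 kb have a median of -0.27 where all genes have -0.14, while in replicates 2 and 3 the bars stay within 0.1 of 0.

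Proteins that work with these enzymes were examined as lists. Of 12 PRC2 subunits and partners, 0 were called higher and 1 lower, against 2.23% and 1.38% of all genes tested. The catalytic subunits Ezh1 and Ezh2 had log2 fold changes of -0.01 and 0.02 (edgeR adjusted p 0.992 and 0.968). Jarid2, a PRC2 cofactor that has a demethylase fold without the activity, fell from 188, 273 and 189 CPM with DMSO to 116, 192 and 137 with GSK-126 (log2 fold change -0.56, SE 0.106, edgeR adjusted p 0.0153). It was below its partner in each pair and, as with Dot1l, highest in replicate 2 of both groups, and the groups overlapped. Without the block, edgeR called 0 of all genes, Jarid2 included. Of 12 partners of the KMT2 and SETD1 complexes 10 were tested, with 0 called in either direction and a median of -0.10.

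The 10 partners of KDM1A, among them the CoREST scaffolds and histone deacetylases, had 0 called in either direction. Of their values, 9 of 10 were negative, with a median of -0.24. At an unadjusted p under 0.05 in the edgeR fit, 4 were lower and 0 higher, where 7.31% and 9.15% of all genes were. The list was drawn up with earlier results of these data known, so these counts only describe it. Phf21a, a reader of unmethylated H3K4 in the KDM1A complex, came nearest to the threshold. It had 95.8, 105 and 78.3 CPM with DMSO and 66.5, 80.7 and 66.3 with GSK-126 (log2 fold change -0.38, edgeR adjusted p 0.0972). It was chosen after its values were seen. Partners and readers of H3K9 methylation had 0 of 8 called (median -0.11), and 8 further enzymes of histone lysine methylation that do not match the name pattern had 0 of 8 called (median -0.07).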

How the data were processed

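RNA was measured by poly(A)-selected RNA-seq with paired reads of 150 bases in 3 DMSO and 3 GSK-126 libraries. The authors deposited whole-number read counts per gene and library, with no normalization. Per the submitters' processing notes and the study's methods, reads were trimmed with Trimmomatic 0.38, aligned to mm10 (GRCm38) with STAR 2.7.2b and counted over exons with HTseq2, whose strand setting is not given in the sources used here. Between 39.1% and 41.6% of fragments were assigned to a gene and 44.8% to 46.7% matched no exon under the strand setting used. The summary rows of each table were dropped. Exon lengths and overlaps came from GENCODE M21.

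Genes with 1 CPM or more in at least 3 of 6 libraries were scaled with TMM factors (0.993 to 1.01) and tested in edgeR 4.0.16 (R 4.3.3; glmQLFit and glmQLFTest, the quasi-likelihood test) with the replicate number as a block, at an adjusted p of 0.05 (Benjamini-Hochberg). DESeq2 1.42.0 and limma 3.58.1 (voom), the fit without the block, other filters and scalings, and each replicate left out served as alternatives. The edgeR fit with the block, and no other, was tested on simulated data. Deviations from the group means correlated by 0.34 to 0.50 across genes for libraries of the same number and by -0.39 to -0.015 for others. Such deviations cancel out within a group, so the negative values go with the positive ones and are no separate evidence. Given the positive values, and as the study's methods define replicates as pooled litters, the numbers were taken to pair the libraries. P-values of the fits with the block rest on how far the difference between the groups varied over the 3 pairs of cultures. Those without the block rest on the spread between libraries of a group. In both, the variance of each gene was drawn toward that of other genes. A p-value or interval is therefore not set by the gene's own 3 pairs alone. No 2 libraries agreed within sampling noise (lowest chi-square per degree of freedom 9.98). Ratios within pairs used a prior count of 2, and floors of 3 counts cover counting error only. Intervals are 95% intervals of the fit.

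The members, role classes and partner and marker lists were chosen with earlier results of these data known. Named members were those called in the main fit or in an alternative, Kdm6a and Kdm6b, the members below the filter, and in each role class the member with the highest mean level per kb of exon over all 6 libraries and the one with the largest absolute log2 fold change. Others are described as chosen after their values were seen or stand as values of their class. The values of 1 tested member are not reported here, and it enters the counts and medians only.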

Additional observations from a re-analysis of the deposited data

How the results depend on the processing

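Calls depended on the test and the filter. Among all genes, where the edgeR fit with the replicate block called 372 higher and 231 lower, the fit with no replicate block called 0 and 0, DESeq2 with no replicate block 46 and 12, and edgeR with no filter 708 and 428. With 1 replicate number left out, 167 to 372 genes were higher and 74 to 286 lower, fewest without replicate 2. Among members, 1 was called higher (Prdm8) with no filter, with DESeq2 and the block and without replicate 1 (0 to 1 over the replicates left out), and 1 lower (Dot1l) with no filter, with DESeq2 and the block and with limma-voom and the block (0 over the replicates left out). The cause was not tested.

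Of 185 values of 19 named members under alternatives that gave an adjusted p, 175 kept direction and side of the threshold, 6 passed it (Dot1l and Prdm8), and 4 turned sign, all without replicate 1: Ash1l (-0.12 to 0.035 over the replicates left out), Kdm1b (-0.24 to 0.021), Setd7 (-0.11 to 0.037) and Setmar (-0.020 to 0.47). For 4 further values DESeq2 with the block gave no adjusted p. The median of the members ran from -0.10 to 0.00 over the replicates left out. The biological coefficient of variation was 0.142 with the block and 0.246 without it, and the members under 50 CPM had wide intervals (median SE 0.212, against 0.112 for the others).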
